A study of Mus musculus with 48 samples.

Results

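The genes described here were 59 chromatin modifiers and remodelers, chosen by symbol: 11 histone methyltransferases, 4 subunits of Polycomb repressive complex 2 (PRC2), 11 histone demethylases, 9 histone acetyltransferases, 6 histone deacetylases, 4 DNA methylation enzymes, 8 subunits of the SWI/SNF complexes, 4 remodelers of the ISWI and CHD families and 2 BET bromodomain proteins. Each symbol matched 1 Ensembl gene among the 50600 genes listed. All 59 passed the filter on low counts and so belonged to the 13889 genes tested. RNA came from mPDAC cells, a mouse pancreatic ductal adenocarcinoma line that the labels describe as FVB/N x C57BL6 and 8 weeks old. The cells were either non-treated (cultures numbered 1, 2 and 4) or exposed for 48 h to 50 µM of N6L, a pseudopeptide antagonist of nucleolin (cultures numbered 1, 2 and 3). All cultures were given emetine, which halts elongating ribosomes, before lysis. From each lysate a cytoplasmic library and a library of the pooled polysomal fractions of a sucrose gradient were made from poly(A)+ RNA, 12 libraries in all. All values stand for 1 cell line and 3 cultures per condition, and nothing in the labels says whether the cultures were grown on separate occasions, so the p-values measure the spread between these cultures.

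In the nucleus, DNA is wrapped around histone octamers, and the tails of the histones carry methyl and acetyl groups that other proteins read. Methyltransferases and acetyltransferases add these groups, demethylases and deacetylases remove them, and bromodomain proteins bind acetylated histones. Remodelers of the SWI/SNF, ISWI and CHD families use ATP to slide or evict nucleosomes, while DNA methyltransferases and TET dioxygenases set and remove DNA methylation. Genes of the COMPASS-like methyltransferases and of the SWI/SNF complexes are recurrently mutated in pancreatic ductal adenocarcinoma. The cytoplasmic library measures how much of each mRNA is present outside the nucleus. The polysomal library measures the mRNA found in fractions where messages carry several ribosomes at once.

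Libraries held 19519911 to 44972333 counts, and the lowest count of any of the 59 genes in any library was 73 (Tet2). CPM is a gene's count relative to the total of its library. The CPM values of the markers and nuclear RNAs in this paragraph are not scaled by TMM, while their FDR and all later CPM values rest on TMM scaling. Of 10 ductal epithelial markers, 8 had a mean of at least 1 CPM in every group. Together the 10 made up 0.726 to 1.01% of the counts. Epcam and Cldn4, which are on that list, were near 0. Of 5 RNAs known to stay in the nucleus, Neat1 was higher in N6L cytoplasm (mean 37.6 to 167 CPM, FDR 0.000697) and polysomes (20.7 to 80.8 CPM, FDR 0.00173). Mir17hg was lower in the cytoplasm (1.32 to 0.495 CPM, FDR 0.0131), Malat1 (57.7 to 69.5 CPM, FDR 0.777) and Kcnq1ot1 (FDR 0.608) did not pass, and Meg3 was at 0. Their sum, 74.9 to 132 CPM in non-treated and 214 to 251 CPM in N6L cytoplasm, thus differed through Neat1. The mRNAs of the mitochondrial genome took 0.388 to 0.837% of the counts of the non-treated and 0.0983 to 0.210% of those of the N6L cytoplasmic libraries. Neat1 and the mitochondrial mRNAs moved with the treatment, and their part in the results below was not tested. The 59 genes together took 0.426 to 0.537% of the counts of the non-treated and 0.769 to 0.779% of those of the N6L cytoplasmic libraries. In the polysomal libraries they took 0.377 to 0.464% without and 0.369 to 0.554% with N6L, the lowest share being that of N6L culture 3. For N6L culture 2, 3 of the technical replicates from the cytoplasm carry labels that give conflicting culture numbers. Without these 3, the 59 genes gave the counts of calls reported below for both fractions, 25 and 4.

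Per kilobase of exon, the mRNAs of these genes differed by a wide margin in non-treated cytoplasm. Brd2, a reader of acetylated histone H4, stood highest with 104 CPM per kilobase, followed by Hdac3, the catalytic subunit of the NCoR corepressor, with 72.6, and Smarcb1, a core SWI/SNF subunit, with 64.0. Tet2 (0.955), Dnmt3a (1.26) and Kmt2c (1.60) stood lowest, and the median of the 59 genes was 9.42. The transcripts were long, with a median of 6380 nucleotides against 2860 for all genes tested, while their GC content (median 51.1%) was close to that of all genes (50.2%).

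Promoter sequences of RefSeq (GRCm38.p6, 250 bases before to 50 after a transcription start) were found for 44 of the 59 genes, 65 starts in all. They were rich in CG dinucleotides, with a median of 29 per promoter against 7 for the 32851 promoters of the table, and in G and C bases (66.0% against 52.7%). The GC box (GGGCGG on either strand) occurred in 44 of the 65 promoters (67.7%) and in 35.7% of all promoters. The CCAAT box (CCAAT on either strand) occurred in 21 (32.3%) against 37.4%, and the TATA box (TATAAA on either strand) in 0 against 13.6%. These matches describe letters in a window and not bound sites. The 32851 promoters were not limited to the 13889 genes tested, as the 59 genes are, and shares over the tested genes were not computed. The promoters of the paralog pairs Brd2 and Brd3 and Kat2a and Kat2b are shown because, as described below, these pairs had the largest differences in paralog ratio in the cytoplasm, with capitals marking any of the 3 motifs. They lie on the minus strand of chromosome 17 from 34122558 to 34122857 (Brd2, the outermost of its 3 starts), the minus strand of chromosome 2 from 27475349 to 27475648 (Brd3), the minus strand of chromosome 11 from 100712418 to 100712717 (Kat2a) and the plus strand of chromosome 17 from 53566721 to 53567020 (Kat2b, the first of 2 starts).
Brd2: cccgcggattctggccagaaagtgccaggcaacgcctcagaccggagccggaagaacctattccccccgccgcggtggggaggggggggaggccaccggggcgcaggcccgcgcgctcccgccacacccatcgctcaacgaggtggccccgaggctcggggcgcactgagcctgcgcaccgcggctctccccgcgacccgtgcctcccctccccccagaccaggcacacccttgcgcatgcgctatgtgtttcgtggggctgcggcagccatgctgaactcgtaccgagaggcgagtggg
Brd3: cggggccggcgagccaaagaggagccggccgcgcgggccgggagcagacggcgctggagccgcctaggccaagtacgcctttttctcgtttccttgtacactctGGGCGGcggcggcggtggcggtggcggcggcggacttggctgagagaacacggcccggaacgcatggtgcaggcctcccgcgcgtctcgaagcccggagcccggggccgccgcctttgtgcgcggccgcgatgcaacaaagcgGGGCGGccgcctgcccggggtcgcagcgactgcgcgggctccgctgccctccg
Kat2a: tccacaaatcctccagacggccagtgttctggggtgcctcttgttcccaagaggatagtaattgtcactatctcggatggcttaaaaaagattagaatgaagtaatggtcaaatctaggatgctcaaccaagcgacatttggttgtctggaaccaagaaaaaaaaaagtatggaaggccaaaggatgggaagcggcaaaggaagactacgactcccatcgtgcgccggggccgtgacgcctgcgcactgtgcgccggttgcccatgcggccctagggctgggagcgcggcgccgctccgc
Kat2b: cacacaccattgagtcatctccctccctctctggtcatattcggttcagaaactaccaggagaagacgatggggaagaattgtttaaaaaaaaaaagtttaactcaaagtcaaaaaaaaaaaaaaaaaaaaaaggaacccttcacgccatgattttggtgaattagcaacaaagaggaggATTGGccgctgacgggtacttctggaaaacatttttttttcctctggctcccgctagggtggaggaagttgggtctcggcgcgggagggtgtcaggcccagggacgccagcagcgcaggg
Brd3 held 2 GC boxes and Kat2b held 1 CCAAT box, while Brd2 and Kat2a held none of the 3 motifs. The Brd3 window, at the 1 start listed, lies inside the annotated gene (27445579 to 27507662) and away from its 5' end.

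In the cytoplasm, N6L-treated cultures held more mRNA of 24 of the 59 genes and less of 1, Kat2a, and 34 did not pass the limit (a false discovery rate, FDR, below 0.05 in the quasi-likelihood test of edgeR, adjusted over all genes by Benjamini-Hochberg). Of all genes tested, 28.3% passed, 14.5% higher and 13.8% lower. Scaled by library size alone, 2588 of all genes were higher and 1363 lower in place of 2013 and 1922, and 28 and 0 of the 59. The log2 fold change was above 0 for 52 of the 59 genes, with a median of 0.52 against 0.04 for all genes, and ranged from -0.47 to 1.49. For 35 genes the 3 N6L cultures lay above the 3 non-treated cultures (29.3% of all genes), for 3 they lay below (25.6% of all genes), and for 21 the treatments overlapped. Each value is a share of its own library, and in a bulk culture more mRNA in every cell cannot be told apart from more cells that hold it. The number of calls changed with single cultures left out, which also makes a group smaller. It was 5 without N6L culture 2 (8.47% of the 59 against 9.24% of all genes). It was 7 without non-treated culture 4 (11.9% against 15.5%) and 12 without non-treated culture 1 (20.3% against 16%). The share of the 59 genes called was thus below that of all genes without either of the first 2. All of these calls were higher, as were 4.02%, 6.97% and 7.49% of all genes. The median log2 fold change of the 59 genes was then 0.51, 0.37 and 0.58. Only Kmt2e, Kdm2b, Kat6b, Arid1b and Brd2 passed under each of the 16 alternatives, all 5 higher. With offsets for transcript length and GC content, 15 genes were higher and 6 lower, 15 of these calls being shared with the 25, and 12.1% of all genes were higher and 17.9% lower. The median of the 59 genes was then 0.22 (all genes -0.05), with 37 above 0 and 22 below.

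In the polysomes, 4 of the 59 genes passed. Brd2 was higher, while Kmt2d, Smarca4 and Brd3 were lower. Of all genes tested, 9.67% passed there, 6.01% higher and 3.66% lower. The median log2 fold change of the 59 genes was -0.01 (all genes 0.00), and the range was -0.99 to 0.85. The 3 N6L cultures lay above the non-treated ones for 3 genes (13.7% of all genes), below them for 8 (11.9% of all genes) and among them for 48. Scaled by library size alone, 3 were higher and 2 lower. DESeq2 called 10 genes, 3 higher and 7 lower (16.9% of the 59 and 14.6% of all genes). The offsets for length and GC content gave 21, 6 higher and 15 lower (35.6% of the 59 and 21.5% of all genes). Without N6L culture 2 or non-treated culture 1 no gene of the 59 passed, beside 1.04% and 1.44% of all genes. Without non-treated cultures 4 and 2, 1 and 2 passed (1.69% and 3.39% of the 59 against 4.44% and 6.77% of all genes). Without N6L culture 1, 10 passed (16.9% against 11.2%). Brd2 alone passed in both fractions, and 31 of the 59 genes passed in neither.

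**Figure D1:**
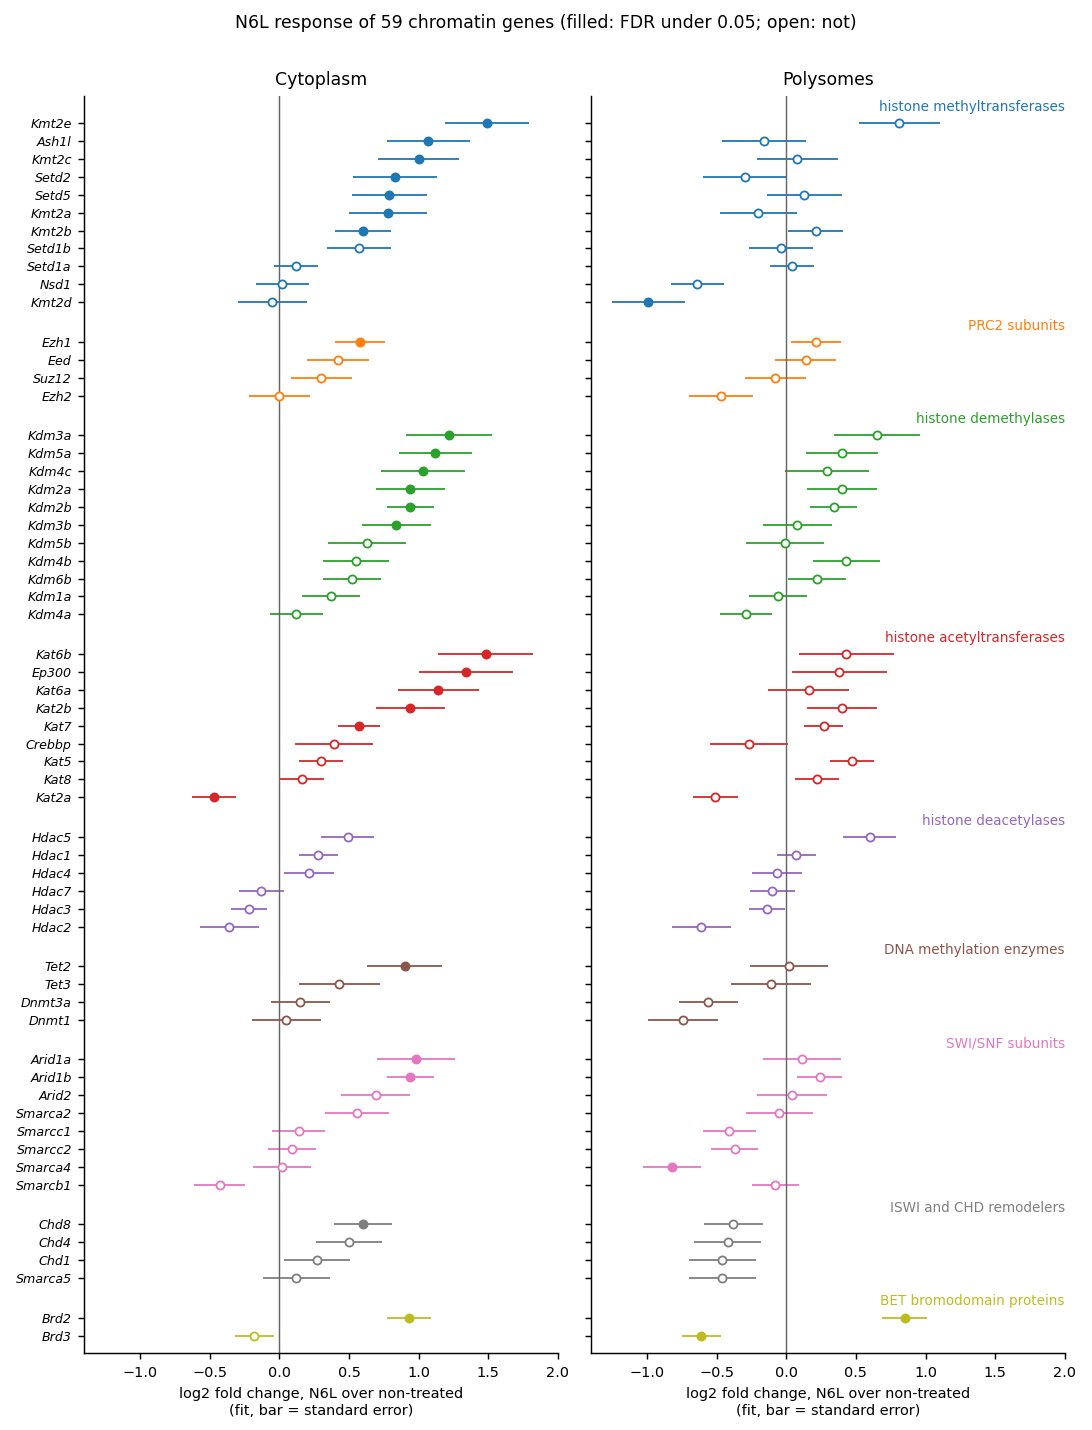
Log2 fold change of each of the 59 genes, N6L over non-treated, in the cytoplasm (left) and the polysomes (right), by role. Points are estimates of the fit over 3 cultures per group, bars are standard errors and filled points passed an FDR of 0.05. In the cytoplasm 24 filled points lie to the right of 0 and 1 to the left, and in the polysomes 1 and 3.

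Among the histone methyltransferases, which include the COMPASS-like enzymes of histone H3 lysine 4, 7 of 11 were higher in the cytoplasm. That is 63.6%, beside 14.5% of all genes, and the median log2 fold change of the 11 was 0.78. Kmt2e (ENSMUSG00000029004, chromosome 5 from 23434441 to 23504235, GRCm38) codes for a SET-domain protein of the MLL family. Its level was 79.3, 67.2 and 45.8 CPM in non-treated cultures 1, 2 and 4 and 130, 209 and 201 CPM in N6L cultures 1, 2 and 3. All 3 N6L values exceeded the highest non-treated one, and the rise of 2.81-fold was the largest of the 59 genes (log2 1.49, SE 0.30, FDR 0.00407). Ash1l, a methyltransferase of histone H3 lysine 36, lay at 50.6, 51.9 and 34.3 CPM without and at 82.2, 106 and 99.4 CPM with N6L, again without overlap (2.10-fold, log2 1.07, SE 0.30, FDR 0.0189). Kmt2c (1.00), Setd2 (0.83), Setd5 (0.79), Kmt2a (0.78) and Kmt2b (0.60) were the other 5, with Setd2 and Kmt2a just inside the limit. Setd1b (0.57), Setd1a (0.12), Nsd1 and Kmt2d did not pass. Setd2, which writes trimethylated lysine 36 of histone H3, lost the call under 6 of 16 alternatives. Kmt2a, the founding MLL enzyme, lost it under 7. For both, these included the RLE size factors and the offsets for length and GC content, besides cultures left out. Kmt2b and Setd5 each lost it under 6, and Kmt2c and Ash1l each under 3.

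In the polysomes the same family had 1 call, and it was lower (9.09%, beside 3.66% of all genes lower). Kmt2d (ENSMUSG00000048154, chromosome 15 from 98831669 to 98871204), the major enhancer H3 lysine 4 monomethyltransferase together with Kmt2c, lay at 46.4, 50.1 and 36.2 CPM without and at 31.5, 22 and 13.2 CPM with N6L. The treatments did not overlap, and the level was 1.98-fold lower (log2 -0.99, SE 0.26, FDR 0.0293), although its cytoplasmic level hardly differed (-0.05, FDR 0.907). The call was lost with each culture left out except N6L culture 1, and with libraries scaled by their size alone. Nsd1, a methyltransferase of lysine 36, lay at 83.6, 73.2 and 76.2 CPM without and at 63.3, 52.5 and 33.7 CPM with N6L, which separated the treatments without passing the limit (-0.64, FDR 0.0516). DESeq2 called it lower. Kmt2e had a polysomal log2 fold change of 0.81 (FDR 0.0972), with 57.7, 70.3 and 28.0 CPM under N6L against 26.9 to 32.9 CPM, so that N6L culture 3 fell among the non-treated cultures.

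PRC2 methylates lysine 27 of histone H3 through either Ezh2 or Ezh1, with Eed and Suz12 as core partners. Ezh1 was higher in the cytoplasm (27.0, 32.5 and 22.1 CPM without and 43.4, 37.9 and 40.5 CPM with N6L), a rise of 1.49-fold (log2 0.58, SE 0.18, FDR 0.0321). The call was lost under 5 of 16 alternatives, 4 of them with 1 culture left out. Ezh2, the enzyme of proliferating cells, stayed between 106 and 132 CPM in all 6 cytoplasmic libraries (log2 0.00, FDR 0.996). In the polysomes it lay at 110, 96.4 and 113 CPM without and at 101, 83.8 and 44.6 CPM with N6L, overlapping between treatments (-0.47, FDR 0.196). Eed lay in the cytoplasm at 47.1, 59.4 and 41.6 CPM without and at 59, 74.5 and 64.8 CPM with N6L, with overlap. Ezh1 lay in the polysomes at 27.7, 36.4 and 26.1 CPM without and at 39.9, 34.5 and 30.0 CPM with N6L, also with overlap (0.21, FDR 0.497). Eed (0.42, FDR 0.154) and Suz12 (0.30, FDR 0.298) did not pass in the cytoplasm. No PRC2 gene passed in the polysomes by edgeR or DESeq2. An unadjusted p under 0.05 was reached by 0 of 4 with edgeR and 1 with DESeq2.

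All 11 histone demethylases had a log2 fold change above 0 in the cytoplasm (median 0.84). Of these, 6 passed (54.5%, beside 14.5% of all genes higher). Kdm2b (ENSMUSG00000029475, chromosome 5 from 122870665 to 122989823), which recruits a variant Polycomb complex to CpG islands, rose from 10.6, 12.5 and 9.11 CPM to 21.1, 19.0 and 21.7 CPM. The change was 1.92-fold (log2 0.94, SE 0.17, FDR 0.00283). Kdm5a, a demethylase of trimethylated lysine 4, rose from 66.2, 61.3 and 40.4 CPM to 112, 131 and 121 CPM (2.17-fold, log2 1.12, SE 0.26, FDR 0.00785). Kdm3a, a demethylase of lysine 9 induced by hypoxia in many cells, rose from 71.4, 103 and 47.1 CPM to 163, 184 and 171 CPM (2.33-fold, log2 1.22, SE 0.31, FDR 0.0122). In each of these 3 genes every N6L culture lay above every non-treated one. Kdm4c (1.03), Kdm2a (0.94) and Kdm3b (0.84) were the other 3. Kdm5b (0.63), Kdm4b (0.55), Kdm6b (0.52), Kdm1a (0.37) and Kdm4a (0.12) did not pass. None of the 11 passed in the polysomes by edgeR or DESeq2, and 0 had an unadjusted p under 0.05 by edgeR. Kdm3a had 60.7, 66.7 and 40.9 CPM there without and 116, 98.1 and 48.5 CPM with N6L (0.65, FDR 0.199), and Kdm2b 14.3, 16.7 and 12.1 CPM against 18.7, 16.2 and 19.6 CPM (0.34, FDR 0.225), both with overlap.

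The histone acetyltransferases moved in both directions in the cytoplasm, with 5 of 9 higher and 1 lower. These are 55.6% and 11.1%, beside 14.5% and 13.8% of all genes. Kat6b (ENSMUSG00000021767, chromosome 14 from 21481434 to 21672478), a MYST-family enzyme of histone H3 lysine 23, rose from 18.1, 19.8 and 11.3 CPM to 39.2, 50.4 and 47.8 CPM (2.79-fold, log2 1.48, SE 0.34, FDR 0.00726). Ep300, the p300 coactivator that acetylates lysine 27 at enhancers, rose from 92.4, 87.7 and 50 CPM to 186, 199 and 199 CPM (2.54-fold, log2 1.34, SE 0.34, FDR 0.0117). Kat6a (1.14), Kat2b (0.94) and Kat7 (0.57) were the other 3 that rose. Crebbp, the close paralog of Ep300, did not pass (0.39, FDR 0.298), although its 3 N6L cultures lay above the non-treated ones.

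Kat2a (ENSMUSG00000020918, chromosome 11 from 100704746 to 100712465) codes for the GCN5 acetyltransferase of the SAGA and ATAC complexes. It was the 1 gene of the 59 called lower in the cytoplasm by edgeR. It lay at 110, 95.6 and 118 CPM without and at 87.0, 70.1 and 76.6 CPM with N6L, a 1.38-fold lower level (log2 -0.47, SE 0.16, FDR 0.0399). The call was lost under 8 of the 16 alternatives, among them library size alone and leaving out any 1 culture other than N6L culture 1 or non-treated culture 2. In the polysomes it lay at 105, 113 and 145 CPM without and at 88.6, 78.8 and 86.9 CPM with N6L, apart but short of the limit (-0.51, FDR 0.0544). Kat5, the catalytic subunit of the TIP60 complex, lay in the polysomes at 71.6, 85.8 and 92.9 CPM without and at 102, 109 and 135 CPM with N6L (0.47, FDR 0.0722). DESeq2 called both of these genes in the polysomes.

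None of the 6 histone deacetylases passed in the cytoplasm by edgeR or DESeq2, where 28.3% and 33.1% of all genes passed. The median log2 fold change of the 6 was 0.04. An unadjusted p under 0.05 was reached by 1 with edgeR and 2 with DESeq2. Hdac5, a class IIa enzyme that shuttles between nucleus and cytoplasm, lay at 72.2, 77.0 and 71.4 CPM without and at 99.6, 100 and 110 CPM with N6L. The treatments did not overlap (0.49, FDR 0.0608), and in the polysomes they did not either, with 67.3, 89.6 and 90.8 CPM against 98.7, 114 and 164 CPM (0.60, FDR 0.0545). Hdac1, a class I enzyme, lay at 49.5, 54.2 and 55.4 CPM without and at 68.9, 59.4 and 65.1 CPM with N6L in the cytoplasm (0.28, FDR 0.149). Its partner and paralog Hdac2 lay in the polysomes at 131, 105 and 123 CPM without and at 96.3, 88.5 and 50.9 CPM with N6L (-0.61, FDR 0.0866). DESeq2 called Hdac5 higher and Hdac2 lower in the polysomes. Hdac3, Hdac4 and Hdac7 had cytoplasmic values of -0.22, 0.21 and -0.13.

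Of the 4 DNA methylation enzymes, Tet2, which oxidizes 5-methylcytosine, was higher in the cytoplasm. It was the lowest of the 59 genes per kilobase, at 9.71, 10.3 and 6.36 CPM without and 14.2, 17.7 and 17.2 CPM with N6L (1.86-fold, log2 0.90, SE 0.27, FDR 0.0255). Tet3 lay at 30.4, 24.1 and 18 CPM against 39.9, 30.4 and 27.7 CPM, with overlap (0.43, FDR 0.271). The maintenance methyltransferase Dnmt1 had a cytoplasmic value of 0.05 and lay in the polysomes at 162, 180 and 168 CPM without and at 160, 77.8 and 68.4 CPM with N6L (-0.74, FDR 0.0799), and DESeq2 called it lower. N6L culture 1 stood close to the non-treated cultures and the other two far below them. The de novo enzyme Dnmt3a lay in the polysomes at 14.7, 13.6 and 11.3 CPM against 11.4, 8.72 and 6.62 CPM (-0.56, FDR 0.106).

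Of the 8 SWI/SNF subunits 2 were higher in the cytoplasm and 1 was lower in the polysomes. Arid1b (ENSMUSG00000069729, chromosome 17 from 4994332 to 5347656) and Arid1a, the alternative DNA-binding subunits of the BAF form, were higher in the cytoplasm. Arid1b rose from 53.3, 54.7 and 42.4 CPM to 92.7, 96.7 and 99.7 CPM (1.92-fold, log2 0.94, SE 0.17, FDR 0.00235). Arid1a rose from 72.3, 90.9 and 69.4 CPM to 167, 142 and 150 CPM (1.97-fold, log2 0.98, SE 0.28, FDR 0.0211). Arid2 of the PBAF form had 0.69 (FDR 0.0541) and passed with DESeq2. The ATPase Smarca4 (0.02), the scaffolds Smarcc1 (0.14) and Smarcc2 (0.09) and the alternative ATPase Smarca2 (0.56, FDR 0.0811) did not pass. Smarcb1 was the 1 subunit below 0 there (-0.43, FDR 0.0773), and DESeq2 called it lower.

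In the polysomes, Smarca4 (ENSMUSG00000032187, chromosome 9 from 21616169 to 21704230), which codes for the BRG1 ATPase, lay at 162, 207 and 232 CPM without and at 159, 85.9 and 95.4 CPM with N6L. N6L culture 1 lay just below the lowest non-treated culture. The level was 1.76-fold lower (log2 -0.82, SE 0.21, FDR 0.0283). The call was lost when any culture but N6L culture 1 was left out, and with the replicate number as a block. Smarcc1 lay there at 106, 107 and 104 CPM without and at 102, 82.4 and 54.2 CPM with N6L (-0.41, FDR 0.176).

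Among the ISWI and CHD remodelers 1 of 4 was higher in the cytoplasm and 0 of 4 passed in the polysomes by edgeR or DESeq2, 0 with an unadjusted p under 0.05. Chd8, a remodeler that binds beta-catenin, rose from 73.3, 67.4 and 64.5 CPM to 99.3, 105 and 106 CPM (1.51-fold, log2 0.60, SE 0.21, FDR 0.0445), a call lost under 7 of 16 alternatives. Chd4, the ATPase of the NuRD complex, lay at 300, 294 and 249 CPM against 440, 368 and 387 CPM, apart but not called (0.50, FDR 0.124). In the polysomes Smarca5, the ISWI ATPase, lay at 66.3, 44.8 and 71.6 CPM without and at 54.0, 50.7 and 27.6 CPM with N6L (-0.46, FDR 0.242). Chd1 lay there at 143, 119 and 122 CPM against 125, 102 and 52.0 CPM (-0.46, FDR 0.251).

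The 2 BET proteins, whose paired bromodomains bind acetylated histones, went apart. Brd2 (ENSMUSG00000024335, chromosome 17 from 34112023 to 34122634) lay at 553, 582 and 419 CPM in non-treated cytoplasm and at 973, 967 and 1030 CPM under N6L, a rise of 1.91-fold (log2 0.93, SE 0.16, FDR 0.00228). In the polysomes it rose too, from 550, 687 and 504 CPM to 980, 1010 and 1140 CPM (1.80-fold, log2 0.85, SE 0.16, FDR 0.00731). No other gene of the 59 was called higher in the polysomes, and this polysomal call was lost without N6L culture 2 or non-treated culture 1. Brd3 (ENSMUSG00000026918, chromosome 2 from 27445579 to 27507662) lay in the cytoplasm at 106, 84.4 and 89.9 CPM without and at 85.3, 81.6 and 80.2 CPM with N6L, which overlapped (-0.18, FDR 0.324). In the polysomes it lay at 88.4, 82.7 and 90.1 CPM against 62.8, 53.2 and 54.6 CPM, without overlap and 1.53-fold lower (log2 -0.61, SE 0.14, FDR 0.0157). The Brd3 call was lost under 5 of 16 alternatives, 3 of them with N6L culture 2 or non-treated culture 1 or 4 left out.

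**Figure D2:**
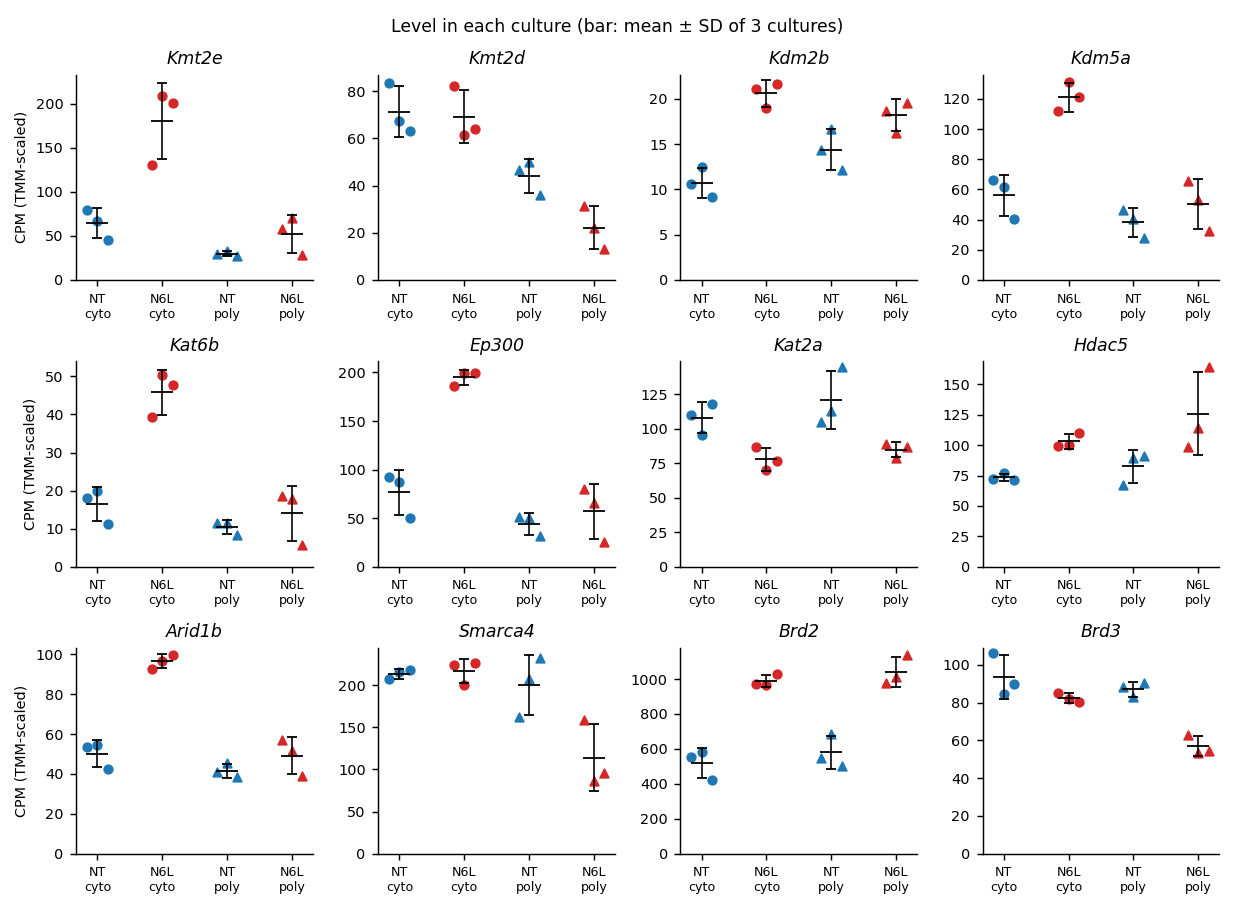
Level (CPM, scaled by TMM) of 12 of the genes in each culture, circles for cytoplasm and triangles for polysomes, blue for non-treated cultures 1, 2 and 4 and red for N6L cultures 1, 2 and 3, from left to right. Bars are means ± SD of 3 cultures. Kmt2e, Kat6b, Ep300 and Arid1b are higher with N6L in the cytoplasm only by the test, Brd2 in both fractions, and Kmt2d, Smarca4 and Brd3 are lower in the polysomes.

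Polysomal and cytoplasmic levels were next compared within each treatment, as group means without pairing by culture. In non-treated cultures 0 of the 59 genes differed between the fractions by edgeR (0.209% of all genes), 13 had an unadjusted p under 0.05 and DESeq2 called 1, Kmt2e. The median log2 ratio of the 59 genes was -0.27 against 0.03 for all genes, and 44 of them were below 0. With the offsets for length and GC content it was -0.08. In N6L cultures 40 of the 59 genes were lower in the polysomes and 0 higher, while of all genes 39.0% passed, 18.4% higher and 20.6% lower. Their median log2 ratio was -0.87 against 0.03. When the cytoplasmic and polysomal library of each culture were paired in a block, 44 were lower and 4 higher (Kat5, Kat8, Hdac3 and Smarcb1), and of all genes 27.6% were lower and 26.1% higher. The offsets for length and GC content left 16 genes, all lower (27.1% of the 59), with a median of -0.32, while 6.89% of all genes were lower and 9.63% higher. Nsd1, Kdm2a and Dnmt3a, which are among the 40, had a ratio above 0 with these offsets.

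By role, the genes lower in the polysomes of N6L cultures were 9 of 11 methyltransferases, 2 of 4 PRC2 subunits, 7 of 11 demethylases, 5 of 9 acetyltransferases, 1 of 6 deacetylases (Hdac4), 4 of 4 DNA methylation enzymes, 7 of 8 SWI/SNF subunits, 4 of 4 ISWI and CHD remodelers and 1 of 2 BET proteins (Brd3). Beside these counts, 20.6% of all genes were lower. Ash1l had the lowest ratio of the 59 genes (-2.01 in the fit). Its log2 values were -0.71, -0.91 and -0.66 in non-treated cultures 1, 2 and 4 and -1.24, -2.08 and -3.11 in N6L cultures 1, 2 and 3. Kmt2e (-1.79), Tet2 (-1.78), Ep300 (-1.77) and Kmt2a (-1.72) followed. Brd2 stayed at 0.01, 0.06 and 0.15 with N6L, and Kat5 at 0.26, 0.36 and 0.53. Of the 40 calls, 11 held under each of the 17 alternatives: Kmt2a, Kmt2c, Kmt2d, Kmt2e, Setd2, Ash1l, Ep300, Kat6a, Kat6b, Tet2 and Chd8. The N6L cultures were unequal. Culture 3 had the lowest ratio of all 6 cultures for 46 of the 59 genes (37.1% of all genes), and the median ratios of cultures 1, 2 and 3 were -0.54, -0.78 and -1.35 against -0.32, -0.17 and -0.18 in the non-treated ones. Without N6L culture 3 the count was 22 (median -0.69), and without N6L culture 2 it was 18, all of them lower, beside 8.64% and 5.66% of all genes lower.

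The log2 translational index, the polysome-to-cytoplasm log2 ratio with N6L minus that without, tests whether loading changed. No gene of the 59 passed by edgeR or DESeq2, as was true of all genes (0.0% of 13889). By edgeR 18 of the 59 had an unadjusted p under 0.05, as had 1074 of the 13889. The index was below 0 for 53 of the 59, with a median of -0.59 against 0.01 for all genes, and its lowest value was that of Ash1l (-1.23, SE 0.43, FDR 0.555). For 33 genes the ratios of the 3 N6L cultures lay below those of the 3 non-treated cultures (14.4% of all genes), and for 1, Smarcb1, they lay above (15.3% of all genes). Chd8 had the smallest unadjusted p (0.00494, index -0.97). The deacetylases had the median closest to 0 (-0.09), and the ISWI and CHD remodelers the lowest (-0.83). Their median transcript lengths were 3740 and 7310 nucleotides. All genes of 3000 to 4000 nucleotides had a median index of -0.05, and those of 6000 to 8000 had -0.44. The part of length in the order of the roles was not tested. The median index of the 59 genes was -0.39 without N6L culture 3 and -0.20 with the offsets for length and GC content. With the culture as a block it was -0.60, and 0 genes passed. By that fit, 35 of the 59 had an unadjusted p under 0.05 (2996 of all genes).

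**Figure D3:**
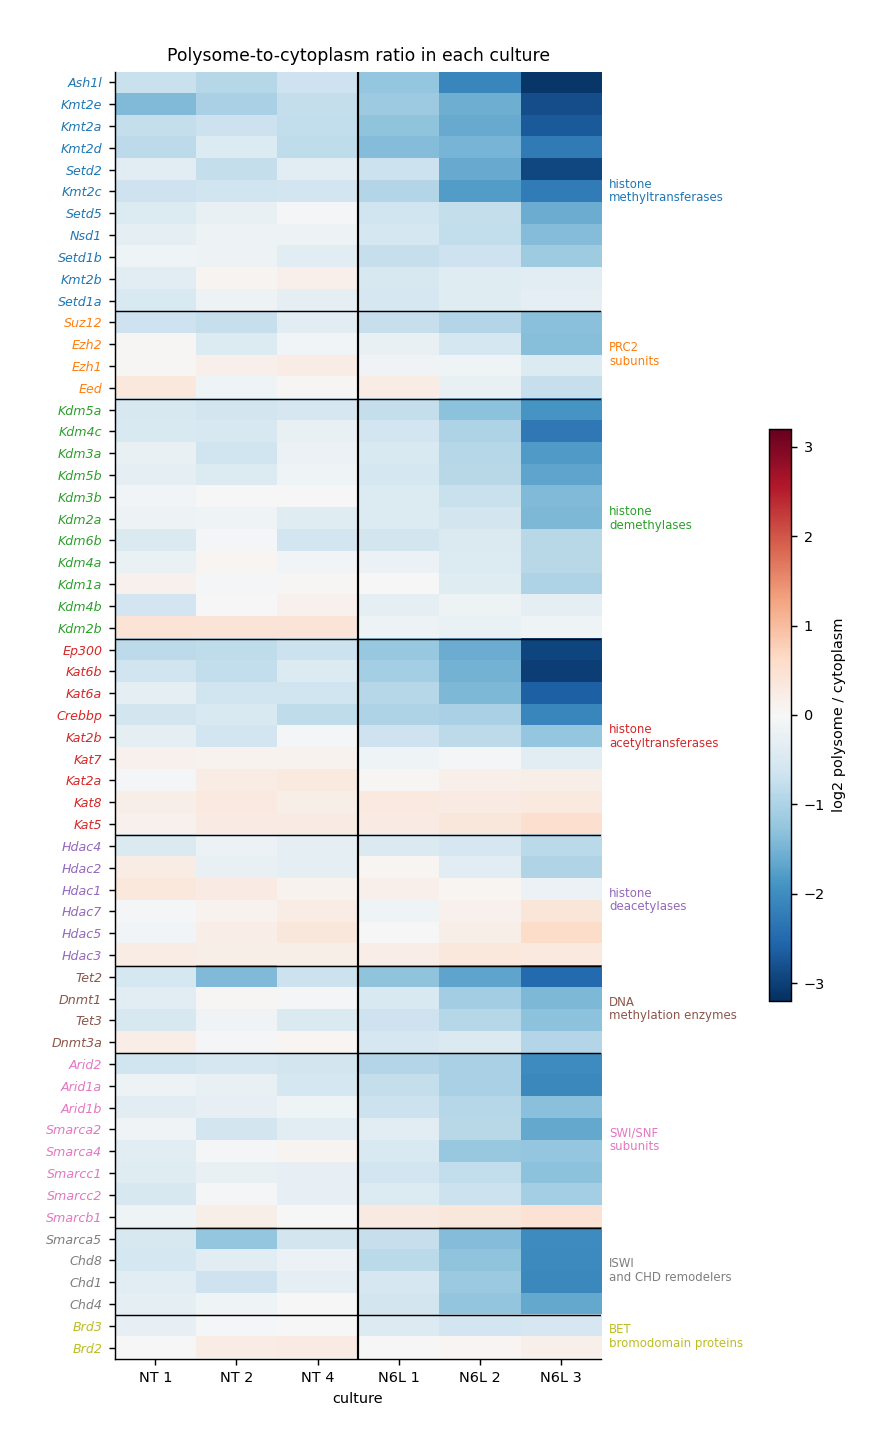
Log2 ratio of the polysomal to the cytoplasmic level of the 59 genes (rows, by role) in each of the 6 cultures (columns). Blue is below 0 and red above. Rows of methyltransferases, DNA methylation enzymes and remodelers darken from the non-treated to the N6L columns, most in N6L culture 3, where Ash1l reaches -3.11, while Kat5, Kat8, Hdac3 and Brd2 stay near or above 0.

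The 24 genes higher in the cytoplasm all had an index below 0 (-1.23 to -0.09), and 19 of them were lower in the polysomes than in the cytoplasm of N6L cultures. Their own polysomal change ran from -0.38 to 0.85 with a median of 0.23. The other 35 genes had a cytoplasmic median of 0.16 and a polysomal median of -0.11, and 21 of them were lower in the polysomes than in the cytoplasm under N6L. Of all genes, 20.6% were lower in the polysomes than in the cytoplasm under N6L. The 24 were picked by a high N6L cytoplasmic level, which is subtracted in the index and in this ratio. Values below 0 are thus favoured by the pick and are no separate result. These comparisons share libraries, so the values are given side by side only.

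Transcript length moved with these values. Over all 13867 genes with a length, the median cytoplasmic change went from -0.63 below 1000 nucleotides to 0.54 from 8000 nucleotides on, and the median index from 0.40 to -0.62. The 22 of the 59 genes with transcripts of at least 8000 nucleotides had medians of 0.73 and -0.72, beside 0.54 and -0.62 for all genes of that length. The 16 genes of 4000 to 6000 nucleotides had 0.52 and -0.44, beside 0.32 and -0.23. Across the 59 genes Spearman's rho of length was 0.425 with the cytoplasmic change, -0.112 with the polysomal change and -0.730 with the index. Across all genes it was 0.506, 0.134 and -0.546. For GC content rho was -0.287, 0.0382 and 0.36 in the same order (-0.221, 0.123 and 0.432 across all genes). Genes are not independent replicates and share the 12 libraries, so no p is given, and the part of length, GC content or RNA integrity in the changes was not tested beyond the offsets.

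**Figure D4:**
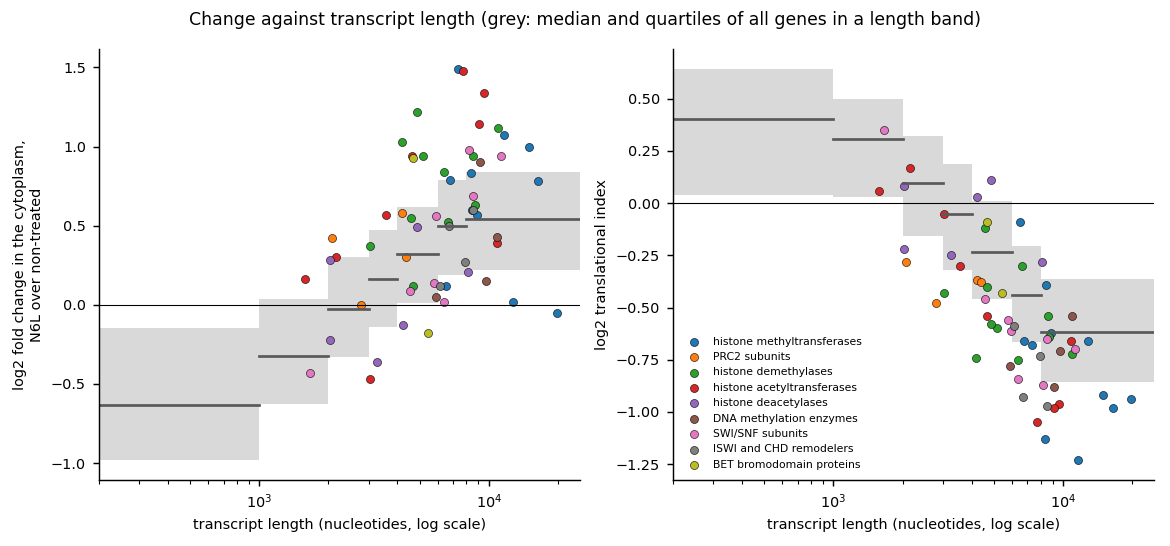
Cytoplasmic log2 fold change (left) and log2 translational index (right) of the 59 genes against transcript length in nucleotides on a log axis, coloured by role. Grey bands are the quartiles and dark lines the medians of all genes in 7 length bands. The medians of all genes rise with length on the left (-0.63 to 0.54) and fall on the right (0.40 to -0.62), and most of the 59 genes lie at the long end.

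Ratios between paralogs within a library do not depend on library scaling, and 18 pairs were compared in each fraction. In the cytoplasm the 3 N6L and 3 non-treated cultures did not overlap for 9 pairs, and in the polysomes for 10. A share over other gene pairs was not computed. Of all single genes, 29.3% lay above and 25.6% below without overlap in the cytoplasm, and 13.7% and 11.9% in the polysomes. With 3 cultures against 3, the exact two-sided permutation test cannot give a p below 0.1, and the smallest adjusted p over the 18 pairs was 0.2 in the cytoplasm and 0.18 in the polysomes, so no pair passed. The log2 ratio of Kat2a to Kat2b, alternative acetyltransferases of the SAGA complex, was 1.74, 1.63 and 2.76 without and 0.96, 0.23 and 0.59 with N6L in the cytoplasm. That of Brd2 to Brd3 was 2.38, 2.79 and 2.22 without and 3.51, 3.57 and 3.68 with N6L. That of Kmt2c to Kmt2d, the enzymes of the MLL3 and MLL4 complexes, was -1.54, -1.33 and -1.95 without and -0.92, -0.20 and -0.44 with N6L. These 3 pairs had the largest mean differences, -1.45, 1.12 and 1.08. In the polysomes the differences were -0.90 with overlap for Kat2a and Kat2b, 1.47 for Brd2 and Brd3 and 1.10 for Kmt2c and Kmt2d. Arid1a to Arid1b (0.04), Kdm2a to Kdm2b (0.00) and Smarcc1 to Smarcc2 (0.05) had the mean differences nearest to 0 in the cytoplasm.

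**Figure D5:**
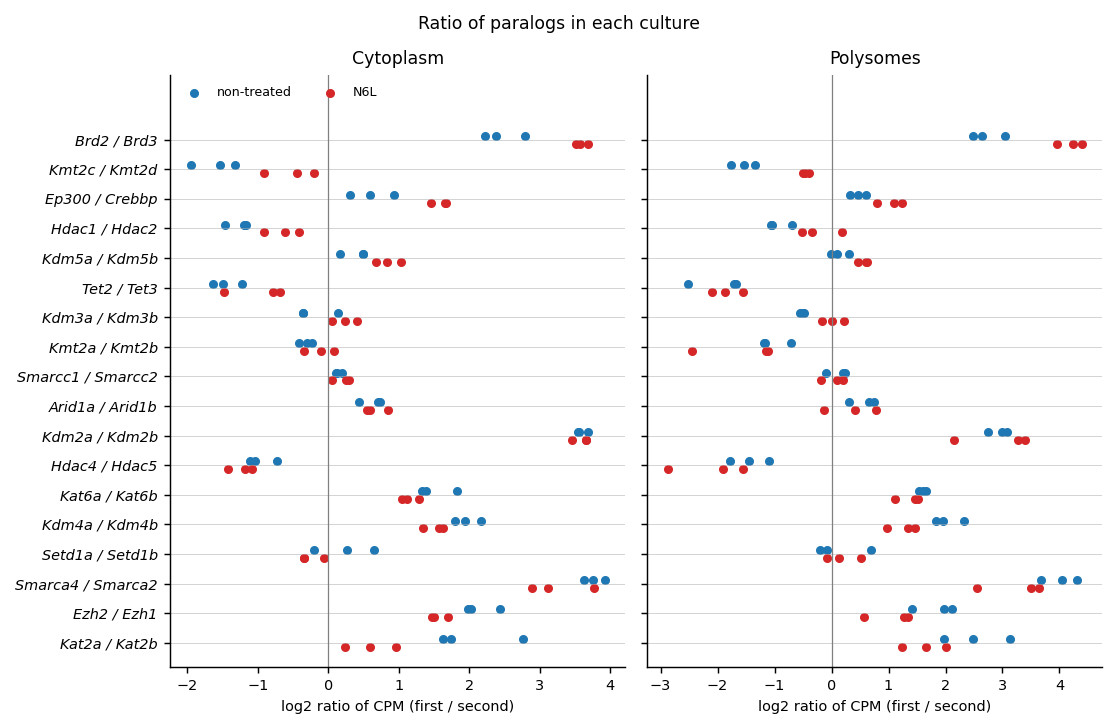
Log2 ratio of the CPM of the first to the second gene of 18 paralog pairs in each culture, in the cytoplasm (left) and the polysomes (right), blue for the 3 non-treated and red for the 3 N6L cultures. Pairs are ordered by the difference in the cytoplasm, from -1.45 (Kat2a and Kat2b, bottom) to 1.12 (Brd2 and Brd3, top).

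A further 129 chromatin genes outside the 59 gave 126 that were tested. In the cytoplasm 28 were higher and 13 lower (median 0.26), beside 14.5% and 13.8% of all genes. This balance depended on the processing, with 16 higher and 20 lower (median -0.04) under the offsets for length and GC content and 34 and 6 with library size alone. In the polysomes 2 were higher and 8 lower (median -0.08), which is 1.59% and 6.35% beside 6.01% and 3.66% of all genes. Between the fractions of N6L cultures, 53 were lower and 13 higher in the polysomes than in the cytoplasm. These are 42.1% and 10.3%, beside 20.6% and 18.4% of all genes. Without N6L culture 2 the cytoplasmic, polysomal and polysome-to-cytoplasm counts were 8, 2 and 24, beside 9.24%, 1.04% and 8.22% of all genes. The last was 29 without N6L culture 3, beside 11.7% of all genes. Each of the other cultures left out, except N6L culture 3, also lowered the cytoplasmic count, to between 12 and 26. The share of all genes was then 15.5 to 23.0%. The polysomal count was 2 and 3 without non-treated cultures 1 and 4, beside 1.44% and 4.44% of all genes. The largest cytoplasmic increases among those with a mean of at least 10 CPM were Ncoa2, a nuclear receptor coactivator (25.8 to 63.5 CPM, log2 1.30, SE 0.27, FDR 0.00496), Kdm6a, a demethylase of lysine 27 (18.1 to 44.8 CPM, 1.30, SE 0.28, FDR 0.00578), and Bptf, a subunit of the NURF remodeler (54.7 to 134 CPM, 1.29, SE 0.28, FDR 0.00607). The largest decreases were Bcl7c of SWI/SNF (52.0 to 26.3 CPM, -0.98, SE 0.32, FDR 0.0355), Dpy30, a shared COMPASS subunit (136 to 72.4 CPM, -0.91, SE 0.26, FDR 0.0213), and Mbd3 of NuRD (225 to 133 CPM, -0.76, SE 0.23, FDR 0.0282). Of 18 further remodelers 8 were higher in the cytoplasm (44.4%, beside 14.5% of all genes), with a median index of -0.89. Under N6L, 16 of them were lower in the polysomes than in the cytoplasm (88.9%, beside 20.6% of all genes). Of 15 further SWI/SNF subunits 4 were lower in the cytoplasm and 0 higher by edgeR (4 with an unadjusted p under 0.05), and their median index was 0.05. The 4 are 26.7%, beside 13.8% of all genes lower. Several of the 59 genes overlap a gene on the opposite strand (Kmt2e and Srpk2, Kdm2b and Rnf34, Ash1l and Dap3, Kdm5a and Ccdc77, Kat5 and Rnaseh2c, among others). The libraries keep the strand, but no source used here gives the strand setting of the counting. Without it, reads from stretches that both genes of a pair share cannot be told apart. Overlap was taken over whole gene spans, and whether exons are shared was not examined.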

How the data were processed

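Cytoplasmic and polysomal poly(A)+ RNA of 3 non-treated and 3 N6L-treated cultures was sequenced as stranded libraries. Per the labels and methods, the authors mapped the reads to mm10, a mouse genome build, with STAR, and HTSeq 0.5.3 gave the counts per gene. The deposited values are raw counts, not normalized, in 4 technical replicates per library. How strand and multiply aligned reads were treated is not given in the sources used here.

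Technical replicates were summed, since the chi-square statistic of their counts was 1.018 to 1.042 times its degrees of freedom. Symbols, coordinates, transcript length and GC content came from GENCODE vM21 (GRCm38) for 50376 of 50600 genes. Genes were then filtered with filterByExpr (13889 kept), normalized by TMM. All 12 libraries entered 1 quasi-likelihood fit (edgeR 4.0.16, R 4.3.3) with a mean per fraction and treatment. P-values were adjusted by Benjamini-Hochberg over all genes, with a limit of 0.05, and DESeq2 1.42.0 was an alternative. CPM values are scaled by TMM, apart from those of the markers and nuclear RNAs, and log2 ratios per culture use a prior count of 2. The fit was tested on simulated data. The common biological coefficient of variation was 0.197.

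Cytoplasm and polysomes of a culture were taken from the same lysate and are paired. The correlation of their deviations around the group means was 0.364, 0.452 and 0.645 for non-treated and 0.0368, 0.199 and 0.229 for N6L samples, in the order of their numbers. The study's methods name no block, so the block was an alternative. Also tried were leaving out each culture, technical replicate a by itself, leaving out the 3 technical replicates with conflicting labels, scaling by RLE or by library size, dropping the filter or asking for 10 counts in each library, offsets for transcript length and GC content, the 2 groups compared alone and a prior count of 0.5 for paralog ratios.

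The genes, the role groups, the pairs and the further lists were chosen with earlier results of these data known. Values in every culture are given for the 2 genes of each role with the smallest p in each fraction and for the 3 paralog pairs with the largest difference. Further chromatin genes named are the 3 largest increases and decreases past the limit in the cytoplasm.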

Additional observations from a re-analysis of the deposited data

How the results depend on the processing

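The 29 calls of N6L against non-treated in the 2 fractions kept their sign under each alternative, and 101 of 464 recomputed values missed the limit. Of the 40 calls of polysome versus cytoplasm under N6L, 3 changed sign with the length and GC offsets (Nsd1, Kdm2a and Dnmt3a). In the cytoplasm the number of the 59 genes called (25) stayed within 21 to 32 in the alternatives with all cultures and ranged from 5 to 27 with a culture left out. In the polysomes (4) it was 10 without a filter or with DESeq2, 21 with the offsets for transcript length and GC content, 1 in a fit of the 2 groups alone and 0 to 10 with a culture left out. Polysome versus cytoplasm in non-treated cultures (0) gave 7 without a filter, 1 with DESeq2 or the 2 groups alone, 3 with the replicate block and the offsets together and 0 to 2 with a culture left out. In N6L cultures (40) it gave 16 with the offsets and 18 to 41 with a culture left out. The index (0) gave 2 without a filter, Ash1l and Setd2, both lower. Of the 126 further genes, the cytoplasmic count (41) was 65 in a fit of the 2 groups alone and 8 to 44 with a culture left out. The polysomal count (10) was 17 with DESeq2, 34 with the offsets, 2 in a fit of the 2 groups alone and 2 to 15 with a culture left out. Polysome versus cytoplasm under N6L (66) was 32 with the offsets and 24 to 72 with a culture left out. The cause of these differences was not tested.

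The replicate number as a block across treatments gave 27 genes in the cytoplasm and 4 in the polysomes. Numbers 1 and 2 alone are shared, and deviations correlated by 0.228 and 0.0455 in the cytoplasm and 0.296 and 0.00756 in the polysomes. The culture as a replicate block gave 48 genes for polysome versus cytoplasm under N6L, 0 without N6L and 0 for the index. Scaling by library size alone moved the median of all genes in the cytoplasm by 0.14 (from 0.04 to 0.19), with 2588 genes higher and 1363 lower in place of 2013 and 1922, and the sign of Kmt2d and Hdac7 there. The RLE factors changed the sign of the cytoplasmic change of Nsd1, Ezh2 and Smarca4, none of them called in that comparison. With 3 cultures per group, leaving out 1 also makes its group smaller. Calls were lost with single cultures left out, and the reason was not tested.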
